A study of Homo sapiens with 6 samples.

Results

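A set of 10 genes of the death receptor pathway was followed in H1975 cells before and after treatment with osimertinib (Osi). The genes were chosen by name for their role in the pathway, with earlier results of these data known. All 10 were found by gene symbol among the 27216 rows of the expression table. They comprise the ligand TNFSF10 (TRAIL), its death receptors TNFRSF10A (DR4) and TNFRSF10B (DR5), the decoy receptors TNFRSF10D and TNFRSF11B (osteoprotegerin), the related receptors TNFRSF1A, TNFRSF21 and TNFRSF12A, the initiator caspase CASP8, and CFLAR, which encodes the caspase 8 inhibitor c-FLIP. H1975 is a line from a human non-small cell lung cancer with a mutant EGFR, and Osi is an EGFR tyrosine kinase inhibitor. The comparison was between groups of 3 samples: 3 parental samples had 0 h of Osi, 3 adapted samples had 72 h of Osi at 1000 nM, and all 6 carry the genotype label WT. The table calls the parental columns DMSO, and whether these cells were left untreated or were kept in DMSO is not stated. No sample is labelled as 72 h without Osi, so the drug and the time in culture cannot be told apart. The study's list of compounds gives a lower concentration of Osi. Dying cells were rinsed off with cold PBS before RNA was taken at 72 h, so that the adapted samples hold the cells that remained attached. The labels also describe an RNase R step, which degrades linear RNA, and the methods of the study do not mention it. All 6 samples are of 1 cell line, and the study describes its experiments in general as independent, without saying for these sequenced samples whether the replicates of a group were separate cultures. The p-values measure the spread between these samples, which may be technical.

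TRAIL and FAS ligand bind receptors whose cytoplasmic death domain recruits the adaptor FADD, and FADD gathers procaspase 8 into a complex at the membrane in which the caspase activates itself. Caspase 8 then cleaves executioner caspases directly, or cleaves BID to engage mitochondria. Decoy receptors bind the same ligand without an intact death domain, and c-FLIP, a relative of caspase 8 with no protease activity of its own, competes for places in the complex. Lung cancer cells commonly carry these receptors, and several of the genes are known targets of NF-kB or the stress factor CHOP.

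Values are given as FPKM, a measure of sequenced fragments corrected for the length of the transcript and the size of the library, which was inferred from the numbers because the authors do not name their unit. Fold changes are differences of log2(FPKM + 1), which understates changes of low genes. Summed over all rows, a sample held 375342 to 387753 FPKM, and the depth is unknown. All 7 epithelial markers EPCAM, KRT7, KRT8, KRT18, KRT19, CDH1 and EGFR were well expressed, with 135 FPKM as the lowest value in any sample. Of 13 markers of immune, endothelial and fibroblast cells, COL1A1 was the one whose mean over all 6 samples reached 1 on the log2 scale, and it rose from 3.06 ± 0.07 to 7.86 ± 0.95 FPKM (limma, adjusted p = 7.8e-05). Below that filter the endothelial markers went in different directions. CDH5 rose from 0.16 ± 0.04 to 2.39 ± 1.0 FPKM and VWF from 0.020 ± 0.005 to 0.18 ± 0.09 FPKM, while PECAM1 fell from 1.35 ± 0.33 to 0.063 ± 0.011 FPKM. LUM was higher (0.038 ± 0.008 against 0.53 ± 0.11 FPKM) and CD14 lower (0.70 ± 0.04 against 0.16 ± 0.06 FPKM) in adapted samples, and none of these groups overlapped. PTPRC was at 0 in parental and at 0.031 ± 0.022 FPKM in adapted samples. The fibroblast markers COL1A2, DCN and PDGFRB were at 0.078 FPKM or less in every sample. The sum of the 13 was 5.30 to 5.89 FPKM in parental and 9.31 to 12.9 FPKM in adapted samples, CD3E was at 0 throughout, and their part in the results below was not tested. Adapted replicate 1 stood apart from the other adapted samples (r = 0.991 with each, against 0.996 between those, across all rows, which are not independent), so that the members are given with and without it. Without it, the named genes of the pathway lists below kept their direction and call, except TNFSF12, which gained one. No value of the 10 genes, nor of the pathway lists below, was among the 147 rows that depart from the 6-decimal grid of the table.

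TNFSF10 and CASP8, a gene that rose and a gene that fell, are shown with the 250 bases before their RefSeq start, because these windows hold the letters in which DNA-binding factors are searched. The TNFSF10 window is chr3:172523431-172523680 on the minus strand and the CASP8 window is chr2:201233213-201233462 on the plus strand (GRCh38.p14). CASP8 has 3 RefSeq starts and the most upstream is printed. In GENCODE v29 the genes begin further upstream, so that 77 bases of the first window and 20 of the second lie inside the annotated gene. Capitals mark matches, on either strand, to GGGCGG (SP1), TGANTCA (AP-1), TTCNNNGAA (GAS), GTAAACA (FOXO), GGGNNTTCC (NF-kB) and GAAANNGAA (IRF).
TNFSF10: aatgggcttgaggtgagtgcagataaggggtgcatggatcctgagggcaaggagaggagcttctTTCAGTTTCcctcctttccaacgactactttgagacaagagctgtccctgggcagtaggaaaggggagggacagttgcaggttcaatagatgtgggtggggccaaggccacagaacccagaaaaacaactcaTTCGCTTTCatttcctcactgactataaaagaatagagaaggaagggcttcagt
CASP8: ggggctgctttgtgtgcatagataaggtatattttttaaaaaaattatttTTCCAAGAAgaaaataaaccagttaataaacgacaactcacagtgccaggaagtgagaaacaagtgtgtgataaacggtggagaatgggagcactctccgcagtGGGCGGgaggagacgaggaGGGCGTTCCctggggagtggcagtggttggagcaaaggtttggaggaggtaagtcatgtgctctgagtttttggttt
The TNFSF10 window holds 2 matches, both to the IRF motif, which begin 186 and 54 bases before the start. The CASP8 window holds 1 match each to GAS, SP1 and NF-kB, at 200, 96 and 77 bases before the start, and none of the matches overlap. Among 35116 windows of the same length, 6.88% hold the IRF motif, 6.57% GAS, 42.6% SP1, 5.78% NF-kB, 6.57% AP-1 and 2.98% FOXO. A match is a run of letters, and nothing in these data shows that a factor binds there. The table of starts also lists CFLAR, TNFRSF1A and TNFRSF21. The entries not found were TNFRSF10A, TNFRSF10B, TNFRSF10D, TNFRSF11B and TNFRSF12A.

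The death receptors of TRAIL were the genes of the group that changed most. TNFRSF10B, DR5, was at 65.3, 66.2 and 63.0 FPKM in the parental samples and at 32.7, 31.1 and 31.0 FPKM in the adapted samples. TNFRSF10A, DR4, was at 16.4, 17.4 and 16.5 FPKM in parental cells and at 7.94, 7.49 and 7.32 FPKM in adapted cells. For both genes every adapted sample lay far below every parental sample, and the samples of a group lay close together. On the log2(FPKM + 1) scale TNFRSF10B fell by 1.01 (standard error 0.056, limma, adjusted p = 1.35e-05) and TNFRSF10A fell by 1.05 (standard error 0.062, adjusted p = 1.87e-05). No other member changed by 1 or more on this scale in either direction, a size that 10.5% of all rows tested reached together with the adjusted p threshold of 0.05, where 56.9% passed the threshold alone. In bulk RNA, less RNA per cell and fewer cells that express a gene cannot be told apart. Without adapted replicate 1 the changes were -1.04 and -1.08. TNFRSF10B was 3.81 to 3.97 times as high as TNFRSF10A in the parental samples and 4.12 to 4.24 times as high in the adapted samples. On the log2(FPKM + 1) scale the difference between the 2 genes within a sample went from 1.89 ± 0.03 to 1.93 ± 0.02 (SD, n = 3 each, two-sided exact permutation test, p = 0.3, adjusted p = 0.3 over 4 pairs of genes). This difference of 0.04 depended on the pseudocount of 1, since it was 0.11 with none, and the FPKM ratios of the groups did not overlap. The likeness of their profiles was also measured over the 6 samples as the root mean square distance after subtracting the parental mean. Where the samples of a group lie close together, as here, this distance mostly restates the fold changes. Among 11706 tested rows with a symbol, TIMM10B (0.032), TNFRSF10A (0.033) and DNA2 (0.035) lay nearest to TNFRSF10B. TNFRSF10A and TNFRSF10B belong to a cluster of 4 genes on chromosome 8, in which the decoy receptors TNFRSF10C and TNFRSF10D lie between them. No stretch of 50 bases in the GENCODE v29 transcripts of any of the 4 is shared with another of the 4. RHOBTB2, which overlaps TNFRSF10B in that annotation, rose from 2.21 ± 0.09 to 2.74 ± 0.24 on the log2 scale (adjusted p = 0.0098, limma), and whether reads were counted by strand is not stated.

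**Figure D1:**
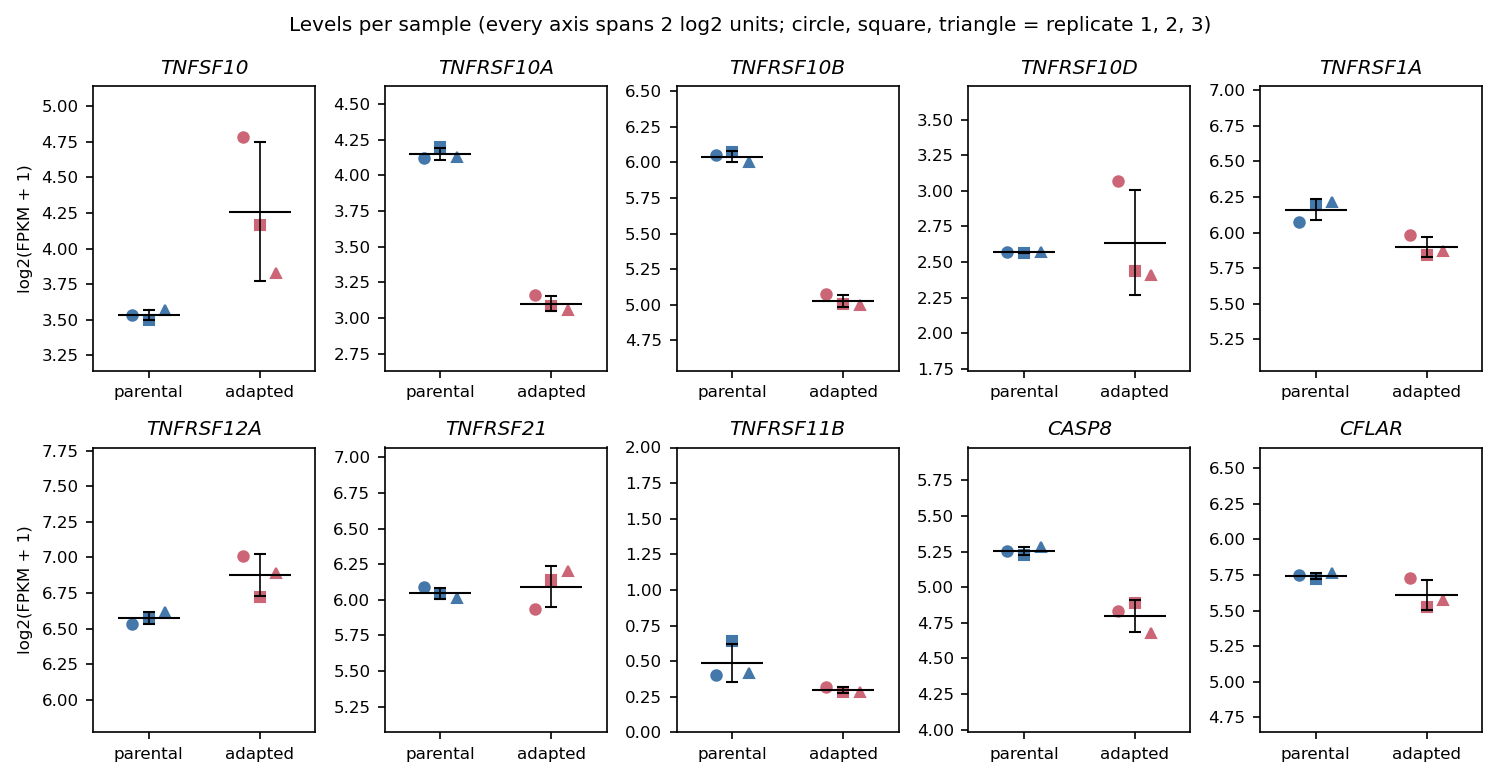
Level of each of the 10 genes in the 6 samples as log2(FPKM + 1), with parental samples in blue and adapted samples in red, horizontal lines for means and error bars for SD (n = 3 each). Every axis spans 2 log2 units, so that the drop of TNFRSF10A and TNFRSF10B and the spread of TNFSF10 and TNFRSF10D among adapted samples can be compared by eye.

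TNFSF10 itself moved the other way. Its level was 10.6, 10.3 and 10.9 FPKM in the parental samples and 26.6, 16.9 and 13.2 FPKM in adapted replicates 1, 2 and 3. The groups did not overlap, but the adapted samples spread widely and replicate 1 was the highest. The log2 fold change was 0.73 (standard error 0.22, limma, adjusted p = 0.0231) with all 6 samples and 0.46 (adjusted p = 0.005) without adapted replicate 1. The gap of 0.79 between adapted replicate 1 and the mean of the other adapted samples was at the 96.9th percentile of such gaps over all rows tested. The call was lost without parental replicate 1, 2 or 3, without adapted replicate 2 and without the filter on low values, with adjusted p between 0.0517 and 0.11. The genes whose profiles lay nearest to that of TNFSF10 were RAB9B (root mean square distance 0.055), EBF4 (0.098) and IGFBP4 (0.11), over the same 6 samples.

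The decoy receptors of TRAIL were low in both groups. TNFRSF10D, which binds TRAIL but has a truncated death domain, was at 4.94, 4.91 and 4.94 FPKM in parental cells and at 7.37, 4.43 and 4.30 FPKM in adapted cells. Adapted replicate 1 was above all parental samples and the other adapted samples were below them. The log2 fold change was 0.07 (95% confidence interval -0.33 to 0.47, limma, adjusted p = 0.753), and without adapted replicate 1 it was -0.15 (adjusted p = 0.07). TNFRSF11B, a secreted decoy, was at 0.32, 0.56 and 0.34 FPKM in parental and 0.25, 0.22 and 0.22 FPKM in adapted samples, and it did not pass the filter on low values (a mean log2(FPKM + 1) of at least 1). Its groups did not overlap, and in the fit without that filter its log2 fold change was -0.19 (adjusted p = 0.127, limma), where 29.5% of all 27216 rows were past the threshold. The difference of its means was -0.20 without adapted replicate 1. TNFRSF10C, the decoy of the same cluster that is anchored in the membrane by a lipid, fell by 0.41 on the log2 scale, from 1.92 ± 0.10 to 1.51 ± 0.28 (limma, adjusted p = 0.0442). It shares 35.4% of its 50-base stretches with transcripts of overlapping loci, and it lost its call in 9 of 17 alternatives. Without adapted replicate 1, the lowest sample, its log2 fold change was -0.26 (adjusted p = 0.0492, limma). Of the overlapping loci, AC107959.5 rose from 1.69 ± 0.14 to 2.00 ± 0.08 on the log2 scale (adjusted p = 0.0288, limma). How reads were divided between these loci was not tested.

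Added up, TNFRSF10A and TNFRSF10B went from 81.6 ± 2.05 to 39.2 ± 1.26 FPKM (SD, n = 3 each), a comparison chosen after the data were seen. The sum of TNFRSF10C and TNFRSF10D was 7.72 ± 0.27 in parental and 7.25 ± 1.28 FPKM in adapted samples. The decoys were 9.14% to 9.80% of the death receptor sum in the parental samples and 16.3% to 21.4% in the adapted samples. TNFSF10 was 12.3% to 13.7% of the death receptor sum in parental cells and 65.5%, 43.9% and 34.4% of it in adapted replicates 1, 2 and 3. Both percentages separated the groups completely (two-sided exact permutation test, p = 0.1, which is the lowest possible with 3 samples a group, adjusted p = 0.133 over 4 quantities), while the decoy sum did not (p = 0.5, exact permutation test). Both have the death receptor sum as denominator, so each partly repeats its fall. The same holds for the difference between TNFRSF10D and TNFRSF10B below. Without adapted replicate 1 the adapted means were 17.0% for the decoys and 39.2% for TNFSF10. Per gene, the difference of log2 values between TNFRSF10D and TNFRSF10B within a sample was 1.08 higher in adapted cells (p = 0.1, exact permutation test, adjusted p = 0.133), and that between TNFRSF11B and TNFSF10 differed by -0.92 (p = 0.1, exact permutation test, adjusted p = 0.133). The last value was -1.57 with no pseudocount, because TNFRSF11B lay below 1 FPKM. This difference also partly repeats the rise of TNFSF10 described above. These are ratios of transcripts, and neither surface protein nor secreted ligand was measured here.

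**Figure D2:**
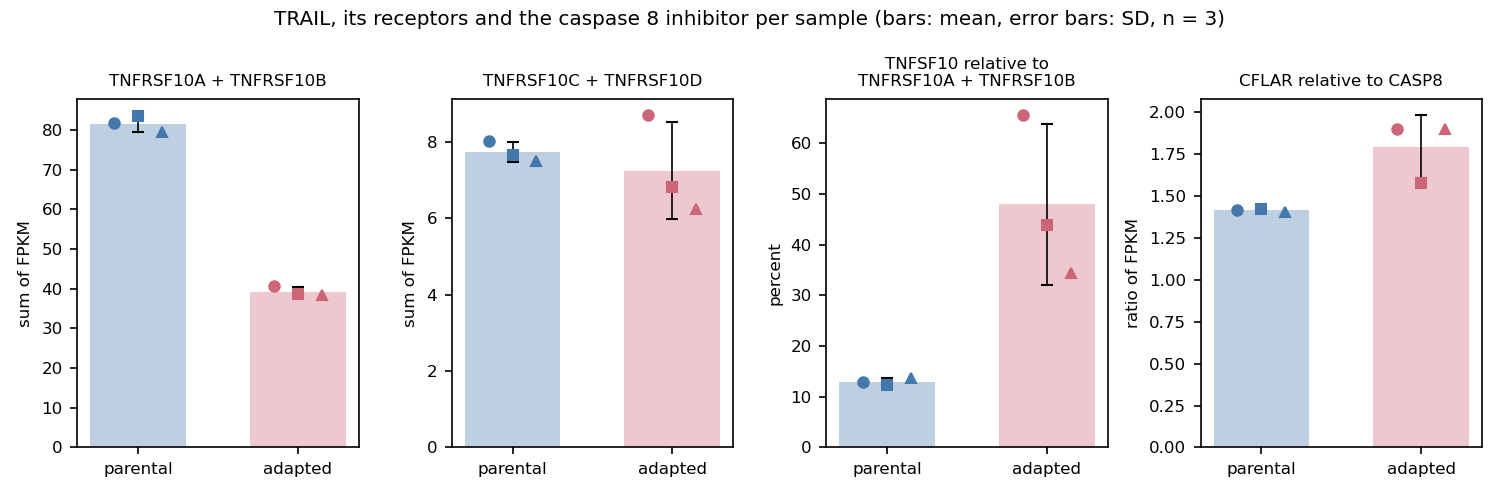
Sum of the FPKM of the TRAIL death receptors, sum of the decoy receptors, TNFSF10 as a percent of the death receptor sum, and the FPKM ratio of CFLAR to CASP8, in parental (blue) and adapted (red) samples. Points are samples (circle, square and triangle for replicates 1, 2 and 3), bars are means and error bars SD (n = 3). The death receptor sum lies between 79.5 and 83.6 in parental and between 38.4 and 40.6 in adapted samples.

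CASP8, the protease at the centre of the pathway, was at 37.1, 36.4 and 38.0 FPKM in parental samples and at 27.4, 28.6 and 24.6 FPKM in adapted samples. All adapted values lay below all parental values, and the log2 value of the gene fell by 0.46 (standard error 0.07, limma, adjusted p = 0.00129). It kept this call under all 18 alternatives, with log2 fold changes from -0.50 to -0.39, and -0.47 without adapted replicate 1. CFLAR was at 52.7, 51.8 and 53.3 FPKM in parental and at 52.1, 45.1 and 46.7 FPKM in adapted samples, where replicate 1 lay within the parental range and the others below it. Its log2 fold change was -0.13 (95% confidence interval -0.29 to 0.03, limma, adjusted p = 0.136), and without adapted replicate 1 it was -0.19 and past the threshold (adjusted p = 0.00861). The FPKM ratio of CFLAR to CASP8 was 1.42, 1.42 and 1.40 in the parental samples and 1.90, 1.58 and 1.90 in the adapted samples. As a difference of log2 values it was 0.49 ± 0.01 in parental and 0.81 ± 0.15 in adapted samples (SD, n = 3 each, two-sided exact permutation test, p = 0.1, adjusted p = 0.133). The ratio has CASP8 as its denominator, so it partly repeats the fall of CASP8, and the mean of CFLAR itself was not higher in adapted samples. The table gives 1 value per gene, so that the long and short forms of c-FLIP could not be told apart. CFLAR, CASP10 and CASP8 lie in this order on the plus strand of chromosome 2 in GENCODE v29 (GRCh38, CFLAR from 201116104 to 201176687, CASP10 from 201182881 to 201229406, CASP8 from 201233443 to 201287711), 6193 and 4036 bases apart. CASP10, the other initiator caspase of these complexes, was at 8.64, 8.66 and 9.11 FPKM in parental and 7.94, 8.62 and 7.78 FPKM in adapted cells (log2 fold change -0.11, limma, adjusted p = 0.208). The profiles nearest to that of CASP8 were those of LETMD1 (0.017), ORC2 (0.019) and PAIP2 (0.028), by the same distance.

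The other receptors changed less. TNFRSF1A, the main receptor for TNF, was at 66.5, 72.4 and 73.2 FPKM in parental and at 62.2, 56.5 and 57.4 FPKM in adapted samples. The groups did not overlap, and the gene fell by 0.26 on the log2 scale (standard error 0.067, limma, adjusted p = 0.0124). It lost this call without parental replicate 2 or 3 (adjusted p = 0.0571 and 0.0567), and was at -0.31 without adapted replicate 1 (adjusted p = 0.00267, limma). TNFRSF12A, which binds TWEAK and has no death domain, was the most abundant of the 10 genes, at 91.5, 94.5 and 97.4 FPKM in parental and at 128, 104 and 118 FPKM in adapted samples. It rose by 0.30 (standard error 0.084, limma, adjusted p = 0.0185), with every adapted sample above every parental sample, and lost the call without parental replicate 1 or 2 and when rows of low level were kept (adjusted p = 0.0701, 0.0606 and 0.0569). Without adapted replicate 1 its log2 fold change was 0.23 (adjusted p = 0.0166, limma). TNFRSF21, the death receptor DR6, was at 67.0, 64.7 and 63.5 FPKM in parental and at 60.1, 69.5 and 72.7 FPKM in adapted samples. These groups overlapped on both sides, with a log2 fold change of 0.05 (95% confidence interval -0.14 to 0.24, limma, adjusted p = 0.642), or 0.13 without adapted replicate 1 (adjusted p = 0.0566). TNFRSF1A lies on chromosome 12 from 6328757 to 6342114 (minus strand), TNFRSF12A on chromosome 16 from 3018445 to 3022383 (plus strand), TNFRSF21 on chromosome 6 from 47231532 to 47309905 (minus strand) and TNFSF10 on chromosome 3 from 172505508 to 172523507 (minus strand) in the same annotation.

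Of the 9 members tested, 2 rose (TNFSF10 and TNFRSF12A), 4 fell (TNFRSF10A, TNFRSF10B, TNFRSF1A and CASP8) and 3 were not past the threshold. Over all 12656 rows tested, 56.9% were past it (30.7% higher and 26.2% lower in adapted cells), so that 6 of 9 is a share near the background. The groups did not overlap in 6 of the 9 either, where 66.3% of all rows did not. The median log2 fold change of the 9 was -0.13, against 0.03 for all rows. In parental cells the order of levels by FPKM was TNFRSF12A, TNFRSF1A, TNFRSF21, TNFRSF10B, CFLAR, CASP8, TNFRSF10A, TNFSF10, TNFRSF10D and TNFRSF11B, and the sample ranges of neighbours overlapped only between TNFRSF1A and TNFRSF21 and between TNFRSF21 and TNFRSF10B. In adapted cells TNFRSF10B stood below CFLAR (31.6 ± 0.95 against 48.0 ± 3.68 FPKM, SD, n = 3) and TNFSF10 stood above TNFRSF10A (18.9 ± 6.92 against 7.58 ± 0.32 FPKM), both the reverse of the parental order. There the ranges of neighbours overlapped between TNFRSF21 and TNFRSF1A, CASP8 and TNFSF10, and TNFRSF10A and TNFRSF10D.

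**Figure D3:**
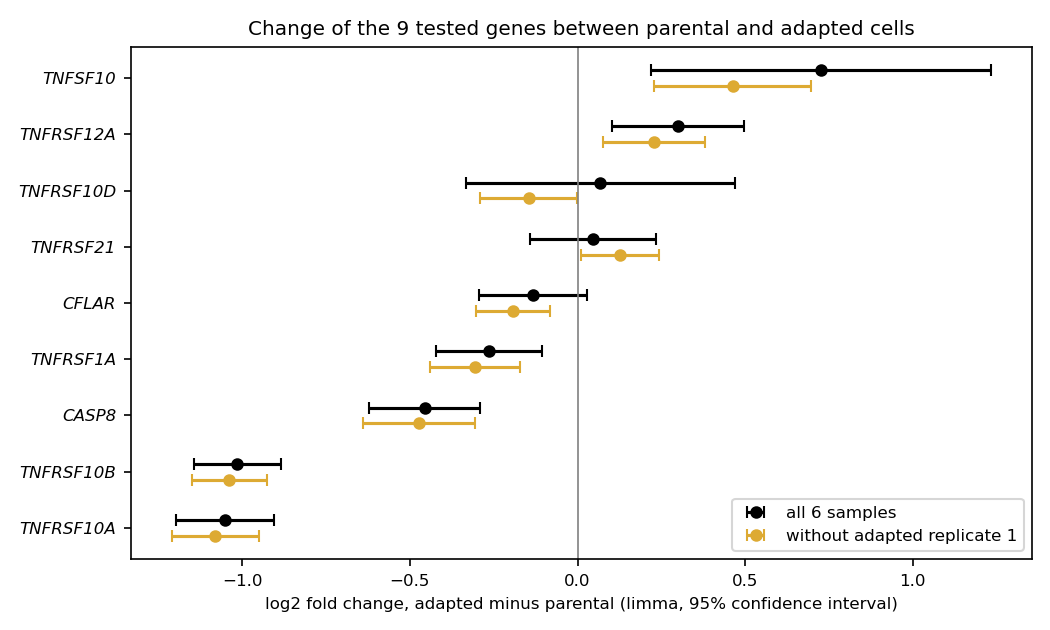
Log2 fold change, adapted minus parental, of the 9 genes that passed the filter, with 95% confidence intervals from limma, for all 6 samples (black) and without adapted replicate 1 (yellow). TNFRSF10A and TNFRSF10B lie near -1 in both fits, and TNFRSF10D crosses from 0.07 to -0.15.

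Other genes of the pathway were read from lists chosen with earlier results of these data known. Among the other receptors of the family, 9 of 22 passed the filter, of which 1 rose and 7 fell (median log2 fold change -0.41). That is 88.9% past the threshold, against 56.9% of all rows tested (30.7% higher, 26.2% lower). Without the filter 2 of the 22 rose and 8 fell, where 29.5% of all rows were past it. TNFRSF19, below the filter, went from 0.38 ± 0.12 to 1.59 ± 0.29 FPKM. FAS, the receptor for FAS ligand, was at 7.60, 7.28 and 6.84 FPKM in parental and at 4.41, 3.88 and 3.88 FPKM in adapted samples, and its log2 value fell by 0.71 (limma, adjusted p = 2.57e-04). TNFRSF6B, a secreted decoy for FAS ligand, was at 45.1, 42.8 and 44.6 FPKM in parental and at 7.29, 3.26 and 2.50 FPKM in adapted samples, and it fell by 3.18 (adjusted p = 1.07e-04), or by 3.55 without adapted replicate 1. The receptors of TRAIL and FAS ligand that carry a death domain were all lower in adapted cells, and so was this decoy. TNFRSF1B, the other receptor for TNF, fell by 0.91 (adjusted p = 0.00438, limma), or by 0.68 without adapted replicate 1, and RELT, a receptor whose ligand is unclear, fell by 0.79 (adjusted p = 8.2e-04). TNFRSF14, which binds LIGHT, rose by 0.55 (adjusted p = 4.27e-04, limma).

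Of the other ligands, 8 of 17 passed the filter, and 2 rose and 2 fell (median -0.09), or 50% against 56.9% of all rows tested. TNF was at 1.88, 1.89 and 2.57 FPKM in parental and at 0.74, 0.37 and 0.54 FPKM in adapted samples, and it fell by 1.01 (limma, adjusted p = 5.86e-04). It passed the filter only through the parental samples, with a mean log2 value of 1.63 there and 0.62 in adapted samples. With a pseudocount of 0.1 its log2 fold change was -1.80. LTB, the lymphotoxin that signals through LTBR, fell by 1.81 (adjusted p = 6.19e-06, limma). TNFSF15 and TNFSF9, ligands best known for acting on lymphocytes, rose by 0.99 (adjusted p = 0.00139, limma) and 0.85 (adjusted p = 0.00129). FASLG was listed at 0 in 5 of the 6 samples. TNFSF12, which encodes TWEAK, the ligand of TNFRSF12A, was at 1.43, 1.46 and 1.39 FPKM in parental and at 1.98, 1.08 and 0.79 FPKM in adapted samples. Its log2 fold change was -0.12 (adjusted p = 0.592, limma), and the adapted samples lay on both sides of the parental ones. Without adapted replicate 1 it was -0.33 (adjusted p = 0.0171, limma).

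All 26 adaptors and regulators of the receptor complexes were tested, and 11 rose and 8 fell (median 0.10), or 73.1% against 56.9% of all rows tested. FADD, the adaptor that joins receptors to caspase 8, was at 27.6, 27.6 and 27.7 FPKM in parental and at 44.5, 34.8 and 33.1 FPKM in adapted samples, and it rose by 0.42 (limma, adjusted p = 0.0134), a call lost without the filter (adjusted p = 0.0613). Without adapted replicate 1, its highest sample, FADD was at 0.29 (adjusted p = 0.00154, limma). RIPK1, a kinase of the TNF receptor complex, rose by 0.56 (adjusted p = 3.79e-04, limma), and PEA15, a death effector domain protein that can block the assembly of the complex, rose by 0.57 (adjusted p = 0.0013). FADD and the caspase it recruits differed in direction. CUL3, part of a ligase that modifies caspase 8, rose by 0.63 (adjusted p = 0.00151, limma), and RNF31, a subunit of the linear ubiquitin ligase, rose by 0.61 (adjusted p = 0.0078), or by 0.77 without adapted replicate 1, while its partner RBCK1 fell by 0.62 (adjusted p = 5.0e-04). BIRC3, an inhibitor of apoptosis that is also an NF-kB target, was at 121, 116 and 110 FPKM in parental and at 20.9, 21.0 and 23.6 FPKM in adapted samples, and it fell by 2.35 (limma, adjusted p = 1.37e-06). TNFAIP3, which encodes the NF-kB feedback protein A20, fell by 1.37 (adjusted p = 3.59e-06, limma).

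Of 16 genes downstream of caspase 8, 14 were tested, and 1 rose and 4 fell (median -0.14), or 35.7% against 56.9% of all rows tested. BID, the caspase 8 substrate that links to mitochondria, was at 7.94, 6.98 and 7.33 FPKM in parental and at 4.96, 3.38 and 2.89 FPKM in adapted samples, and it fell by 0.85 (limma, adjusted p = 0.00275), or by 1.03 without adapted replicate 1. MLKL, the executor of necroptosis, fell by 0.61 (adjusted p = 9.68e-04, limma). XIAP, an inhibitor of executioner caspases, fell by 0.30 (adjusted p = 0.0211, limma), a call lost in 4 of 18 alternatives. DIABLO, which encodes the XIAP antagonist SMAC, was listed at 0.068 FPKM or less in all 6 samples, a level so low for a gene that cells commonly use that it may be a failed estimate.

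Among 13 transcription factors known to act on these genes, 1 rose and 4 fell (median -0.07), or 38.5% against 56.9% of all rows tested. DDIT3, which encodes CHOP, an activator of TNFRSF10B under stress, was at 58.2, 58.4 and 65.6 FPKM in parental and at 26.7, 26.0 and 25.2 FPKM in adapted samples, and it fell by 1.19 (limma, adjusted p = 1.54e-05). DDIT3 and TNFRSF10B were both lower in every adapted sample than in any parental sample. The groups did not overlap in 66.3% of all rows tested, and a link between DDIT3 and TNFRSF10B was not tested. CEBPB fell by 1.64 (adjusted p = 1.07e-05, limma) and NFKB1 fell by 0.42 (adjusted p = 0.00225). IRF1, an interferon factor, had a log2 fold change of -0.02 (95% confidence interval -0.21 to 0.17), and the activity of these factors was not tested. Of 6 genes of receptor glycosylation and of the signal recognition particle, 4 were tested and 3 fell, or 75% against 56.9% of all rows tested. GALNT3, an enzyme that starts O-glycosylation, fell by 0.72 (adjusted p = 9.55e-05, limma), FUT3, a fucosyltransferase, fell by 0.75 (adjusted p = 2.65e-04), and SRP72 fell by 0.29 (adjusted p = 0.00434). Shares past the threshold in the 6 lists ranged from 35.7% to 88.9%, around the background of 56.9%.

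**Figure D4:**
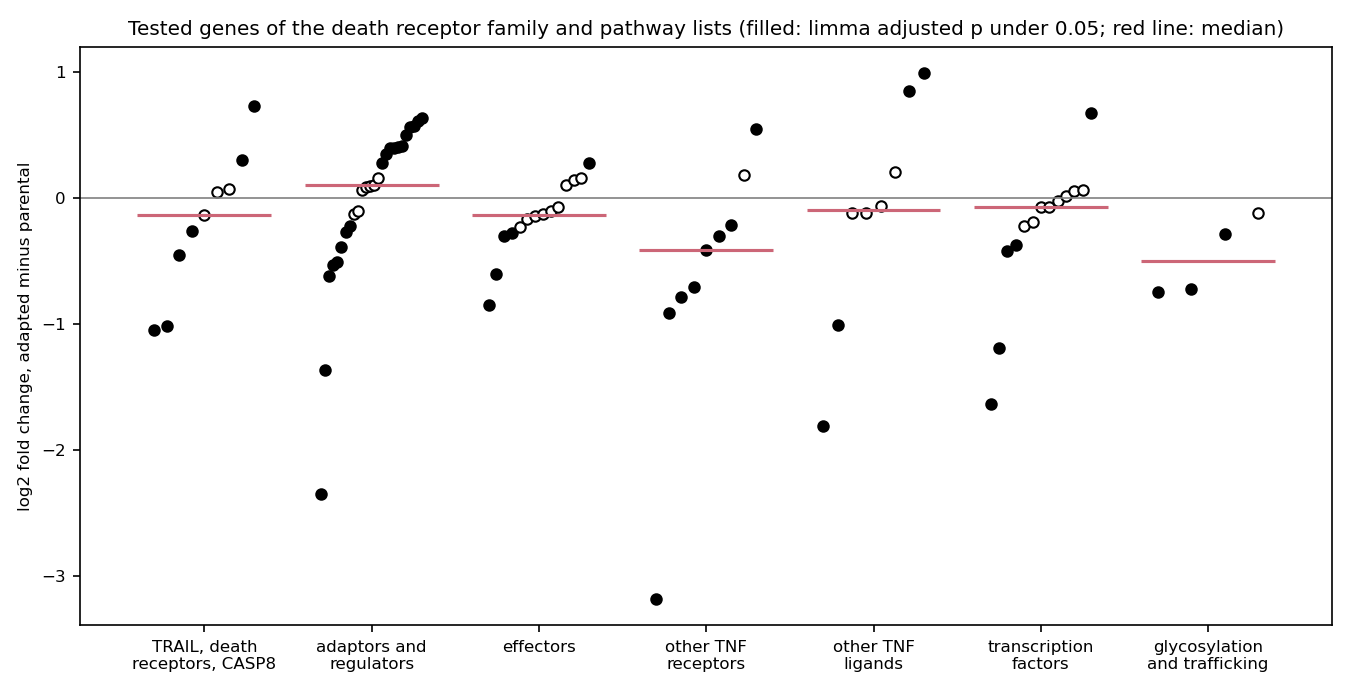
Log2 fold change, adapted minus parental, of the tested genes of the death receptor family and of 6 pathway lists. Filled points had a limma adjusted p under 0.05 and red lines are medians, from -0.50 for glycosylation and trafficking to 0.10 for adaptors and regulators. The lowest point is TNFRSF6B at -3.18.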

How the data were processed

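RNA of 3 parental and 3 adapted samples of H1975 cells was sequenced. The authors deposited 1 table of log2 values, a single one for each gene in each sample, taken as log2(FPKM + 1) because 2 to the power of the value, minus 1, had 6 decimals in all but 147 of 27216 rows (tolerance 1e-09). The submitters' processing notes name hg38, Bowtie2 2.1.0, STAR and edgeR with no roles, and the quantifier and annotation are not given in the sources used here. Column names (DMSO or Osi and a number) were matched to groups and replicates. The depth is unknown, so no counting error is given.

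The study names a count-based test, which these values do not allow. Here rows with a mean log2 value of at least 1 (12656) were compared with limma 3.58.1 in R 4.3.3 (lmFit, eBayes with an intensity trend), unpaired, two-sided, with Benjamini-Hochberg adjustment over all of them and a threshold of 0.05. The script was tested on simulated data. Members and lists were chosen with earlier results of these data known. Named were all members, 13 fixed genes and, per list, the genes past the threshold that rose or fell most (up to 3 each way) and whose groups did not overlap. RHOBTB2, AC107959.5, TNFRSF19, DIABLO, IRF1 and the markers COL1A1, COL1A2, CDH5, VWF, PECAM1, LUM, DCN, PDGFRB, CD14, PTPRC and CD3E were named after their values were seen. Some genes that this rule names are not reported here. Alternatives were other pseudocounts, filters, normalizations and eBayes settings, a replicate block, each sample left out in turn, and leaving out rows off the grid or named NewGene_. Sequences are from RefSeq (GRCh38.p14), with 5 of 10 members matched, and transcripts from GENCODE v29. Motifs and shared stretches were searched with Python 3.11.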

Additional observations from a re-analysis of the deposited data

How the results depend on the processing

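Members kept their direction and call in 148 of 161 refits. The direction was reversed for TNFRSF10D without adapted replicate 1 and for TNFRSF21 and TNFSF12 without adapted replicate 3, with log2 fold changes that ranged over the fits without 1 sample from -0.15 to 0.18, from -0.0087 to 0.13 and from -0.33 to 0.038. Of 547 refits of the other named genes, 20 changed the call. Members past the threshold numbered 3 (without parental replicate 2) to 7 (without adapted replicate 1) when 1 sample was left out. The same range was 5763 to 8370 for all rows, 14 to 20 for adaptors and regulators, 2 to 8 for effectors (8 without adapted replicate 1, 2 without parental replicate 1, 3 without parental replicate 2 or 3 or adapted replicate 2), 5 to 9 for other receptors (5 without parental replicate 2 or 3), 4 to 6 for other ligands, 5 to 6 for transcription factors and 3 to 3 for glycosylation. The filter at a mean of 3 gave 4532 calls over all rows, where fewer rows were tested, 2 effectors, 4 other receptors and 1 other ligand, and no filter gave 2 effectors and 7 other ligands. A log2 fold change of at least 1, added after the data were seen, left 1328 rows and 2 members. The change of TNFRSF10B against TNFRSF10A within a sample was 0.04, 0.10 with a pseudocount of 0.1 and 0.11 with none, and that of TNFRSF11B against TNFSF10 was -1.57 with none. Over the fits that left out 1 sample, the changes ranged from 0.28 to 0.41 for CFLAR against CASP8, from 0.03 to 0.06 for TNFRSF10B against TNFRSF10A, from 0.89 to 1.19 for TNFRSF10D against TNFRSF10B and from -1.13 to -0.67 for TNFRSF11B against TNFSF10. Same-numbered samples did not deviate together (r from -0.05 to -0.02 over rows tested), so the numbers were not taken as pairs. With the replicate block, 6 members, 6761 rows, 18 adaptors and regulators, 4 effectors and 6 other receptors were past the threshold, and among the named genes only TNFRSF10C lost its call (adjusted p = 0.0679). The causes of these differences were not tested. With 3 samples a group, the spread between replicates limits what can be called, and values under 1 FPKM, as for TNFRSF11B, are the least certain.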
